A study of Homo sapiens with 6 samples.

Results

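Splicing factors of the SR and hnRNP families and the core proteins that recognise the branch site and the 3′ splice site were followed across all 6 RNA-seq libraries of a study of circPTK2, a circular transcript of the gene PTK2. The set holds 40 genes, taken by symbol from a table of 136953 transcript rows, of which 121915 carry one of 30717 gene identifiers. It comprises 10 SR proteins, 2 TRA2 proteins, 12 hnRNP proteins, 3 polypyrimidine tract-binding (PTB) proteins, 9 SF3A and SF3B subunits, 2 U2AF subunits, SCAF1 and PRPF8. These genes have 462 transcript rows, between 1 and 46 each, and all 40 genes passed the filter on low counts. The libraries came from T24 and UMUC3, established human bladder cancer lines. For each line there were 2 libraries with circPTK2 knockdown and 1 control library, titled as the control of the same siRNA set. The sample titles speak of si reagents 1 and 2, whereas the study's design description speaks of sh reagents, and which of them was used is unresolved. The titles give the 2 knockdown libraries of a line different reagent numbers, so the spread between them can hold differences between reagents. No label states that paired knockdown libraries were made from separate cultures. The p-values therefore measure only the spread between these libraries, which may in part be technical.

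Total counts ran from 65111683 to 72362436 per library, and rows without a gene took 14.9 to 16.1% of them. No row was matched to circPTK2 itself, so its knockdown was not checked here. T24 carried the epithelial keratins KRT8 (1558, 1481 and 1691 CPM) and KRT19 (527, 510.5 and 543 CPM). UMUC3 had KRT8 at 91.0, 81.4 and 86.3 CPM and KRT19 at 0.0713, 0.263 and 0.0537 CPM. Of 10 epithelial and urothelial markers tested, 7 were higher in T24 and 2 lower (edgeR adjusted p at or under 0.05). The 2 lower ones, UPK1A and TP63, were near 0 in both lines, with UPK1A at 0, 0 and 0 CPM in T24 and 0.410, 0.279 and 0.394 CPM in UMUC3, and TP63 at 0, 0.0673 and 0 CPM in T24 and 0.285, 0.197 and 0.501 CPM in UMUC3. All 3 fibroblast and muscle markers tested had negative log2 fold changes in T24 relative to UMUC3, and COL1A1 (5.08, 5.03 and 2.64 CPM in T24, 7.04, 9.66 and 4.94 CPM in UMUC3) and PDGFRB (1.5, 1.14 and 1.01 CPM in T24, 5.38, 3.47 and 6.45 CPM in UMUC3) passed, although the COL1A1 values of the lines overlapped. The epithelial genes CDH1 and KRT20 and the uroplakins UPK1B and UPK2 were at or near 0 in every library, and so were the blood cell genes PTPRC and LYZ. The 1 blood cell marker tested was higher in T24, with a log2 fold change of 2.94 (edgeR adjusted p = 0.00242). Of 3 endothelial markers tested, 1 passed as higher in T24 and 0 as lower, with 2 positive log2 fold changes and 1 negative. The endothelial gene CDH5 stood at 64.5, 67.3 and 75.5 CPM in T24 and at 0 in UMUC3. CPM were computed from the counts in named genes and scaled with TMM factors.

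SR proteins bind exonic RNA through an RNA recognition motif and recruit the spliceosome through a domain rich in arginine and serine. hnRNP proteins coat nascent transcripts and often oppose the use of nearby splice sites. U2AF reads the 3′ splice site, SF3A and SF3B then anchor the U2 snRNP at the branch site, and PRPF8 sits at the core of the U5 snRNP. Many genes of the SR and hnRNP families carry an exon with an early stop codon, called a poison exon, whose inclusion sends the messenger RNA to nonsense-mediated decay (NMD) and lowers the level of the protein.

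The messages of the set were abundant and their sum was steady. Together the 40 genes made up 0.964 and 0.954% of named counts in the T24 knockdown libraries, against 0.998% in the T24 control. In UMUC3 they made up 1.19 and 1.20% after knockdown, against 1.17% in the control, so the lines did not overlap. In such bulk libraries, fewer cells that express a gene and less of its RNA per cell cannot be told apart. Per kilobase of transcript and averaged over the 6 libraries, HNRNPA2B1 was highest at 398 CPM per kb. HNRNPA1 followed at 283, HNRNPK at 261, HNRNPC at 199.96 and SRSF9 at 177 CPM per kb. HNRNPA2B1, HNRNPA1 and HNRNPC are core packaging proteins of nascent RNA, HNRNPK binds cytosine-rich RNA, and SRSF9 is an SR protein with a short serine- and arginine-rich tail. The 3 lowest were PTBP2, the form best known from neurons, at 9.52 CPM per kb, the SF3A subunit SF3A2 at 12.9 CPM per kb, and PTBP3 at 13.2 CPM per kb. HNRNPA1 has 74 annotated pseudogenes of its name, the most of any of the 40 genes, and 15 of the 40 have at least 1, so the counting could have split reads of those genes with those pseudogenes. Another gene overlaps 23 of the 40, and no source used here states whether counting used the strand.

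After circPTK2 knockdown, 82.5% of the 40 genes lay within 0.5 of the T24 control on the log2 scale, and 80% within 0.5 of the UMUC3 control, in each knockdown library. The 2 knockdown libraries of a line lay within 0.5 of each other for more of them, 87.5% in T24 and 92.5% in UMUC3. In each knockdown library 3 of the 40 genes lay more than 1 from the control, beside 8.81 and 9.15% of all genes in T24 and 11.3 and 10.7% in UMUC3. Over both lines together no gene of the set passed the test (edgeR quasi-likelihood test, adjusted p at or under 0.05). At an unadjusted p under 0.05 none was higher and 4 were lower, namely HNRNPL, SF3B4, SF3B6 and SRSF9, where 5.95% of all genes were higher and 5.63% lower at that threshold. Among all 20721 genes tested, 0.00483% passed as higher and 0.00965% as lower in that comparison. The median log2 fold change of the set was 0.03, against 0.01 over all genes tested. All 4 knockdown libraries lay above the control of their line for 9 of the 40 genes, beside 13.3% of all genes, and below it for 8, beside 15.1% of all genes. DESeq2 passed 2 of the 40 genes, HNRNPL and SF3B6, beside 987 of all 20721 genes.

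Within single lines 4 genes passed. In T24 only SCAF1 rose, where 0.0917% of all genes rose and 0.0434% fell. In UMUC3 SF3B2 rose, where 0.43% of all genes rose, and SF3B4 and PTBP3 fell, where 0.217% of all genes fell. The difference between the knockdown effects, T24 minus UMUC3, passed for SCAF1 alone, where 0.0193% of all genes passed as higher and 0.0386% as lower. Both knockdown libraries lay above the control for 16 of the 40 genes in T24 (34.7% of all genes) and 19 in UMUC3 (35.6%), and below it for 19 in T24 (37.3%) and 16 in UMUC3 (37.1%). Each control is a single library, which the fit assumes to vary like the paired knockdown libraries, and each of these 4 calls rests on that.

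**Figure D1:**
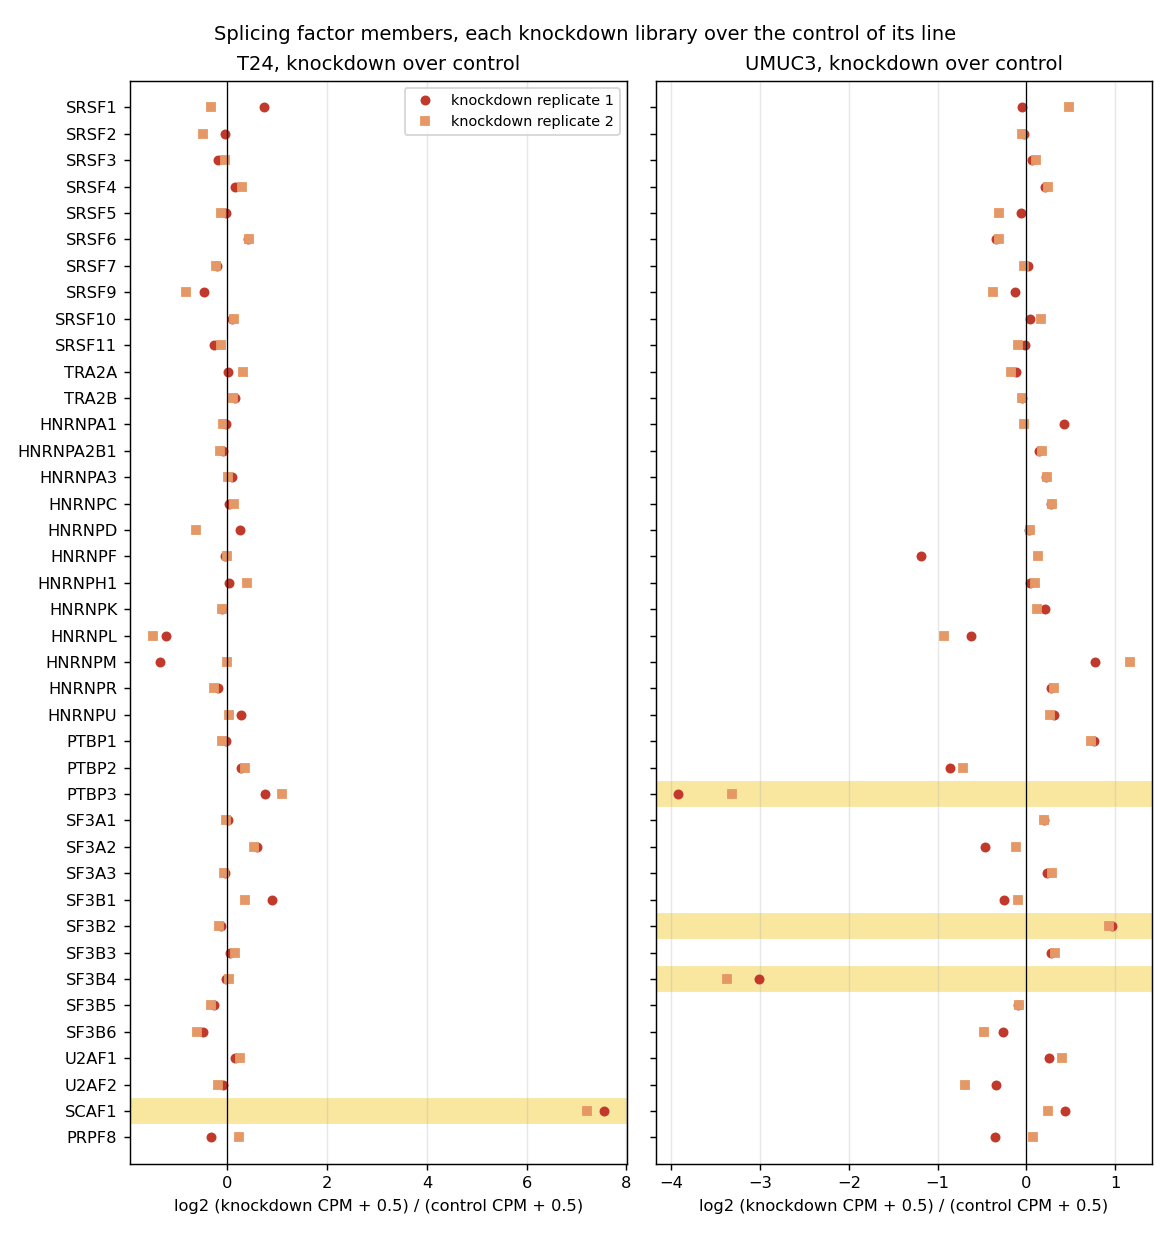
Log2 ratio of each knockdown library to the control of its line (CPM plus 0.5) for the 40 genes, T24 on the left and UMUC3 on the right with different x ranges. Circles and squares are knockdown libraries 1 and 2, labelled as replicates and numbered by the reagent of the titles. Shaded genes passed the edgeR test in that line. Most points lie near 0, SCAF1 stands alone at the right in T24, and PTBP3 and SF3B4 stand at the left in UMUC3.

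SCAF1, an SR-related factor that binds the tail of RNA polymerase II (chr19:49642125-49658642, plus strand, GRCh38), showed the widest contrast. It measured 198 and 156 CPM in the T24 knockdown libraries, against 0.555 CPM in the T24 control. In UMUC3 it measured 224 and 196 CPM after knockdown, against 166 CPM in the control. The T24 control was thus far below the other 5 libraries, whose values all exceeded 150 CPM. The log2 fold change was 8.31 ± 0.33 (SE) in T24 (edgeR adjusted p = 0.0316) and 0.34 ± 0.19 (SE) in UMUC3 (edgeR adjusted p = 0.46). The difference between them was 7.97 ± 0.36 (SE) (edgeR adjusted p = 0.0487). Its coding transcript SCAF1-201 had 197 and 156 CPM in the T24 knockdown libraries and 0 counts in the T24 control. With that control set at 3 counts, it was at least 3487-fold higher after knockdown, if the deposited assignment of reads to transcripts holds. SCAF1-204 and SCAF1-203, also annotated as coding, held the 0.555 CPM left in that control. Any of those reads that came from SCAF1-201 would lower the fold. With 1 library left out, the T24 call was lost for either T24 knockdown library (adjusted p = 0.277 and 0.288) and for either UMUC3 knockdown library (adjusted p = 0.232 and 0.236), and it was also lost with limma voom (adjusted p = 0.116). The call of the difference was lost in each of these fits and with DESeq2's size factors in edgeR.

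SF3B4, the SF3B subunit that contacts RNA beside the branch site (chr1:149923317-149928344, minus strand), fell in UMUC3. It had 29.3 and 22.7 CPM in the UMUC3 knockdown libraries, against 240.5 CPM in the UMUC3 control. In T24 the values were 154 and 161 CPM after knockdown and 157 CPM in the control. The UMUC3 knockdown libraries were the 2 lowest of the 6 and the UMUC3 control was the highest, with the T24 libraries between them. The log2 fold change in UMUC3 was -3.21 ± 0.18 (SE) (edgeR adjusted p = 0.0337), and the difference from T24 was 3.22 ± 0.26 (SE) (edgeR adjusted p = 0.0888), which missed the threshold. That difference passed with DESeq2 (adjusted p = 6.31e-14) and in edgeR among genes with at least 2 transcripts and, in each line, less than 0.2 of their counts moved between transcripts (adjusted p = 0.0273). Nearly all counts of SF3B4 sat in 1 of its 2 annotated transcripts, SF3B4-201, in all 6 libraries. Whether rows without a gene hold reads of SF3B4 was not tested. SF3B2, the SF3B subunit that binds SF3B4 (chr11:66050729-66069308, plus strand), moved the other way. It had 304 and 298 CPM in the UMUC3 knockdown libraries, against 155 CPM in the UMUC3 control. T24 gave 389.6 and 378 CPM after knockdown and 424 CPM in the control. The UMUC3 control was the lowest of the 6 libraries for SF3B2. Its log2 fold change in UMUC3 was 0.95 ± 0.08 (SE) (edgeR adjusted p = 0.047).

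None of the other subunits of SF3A and SF3B passed. SF3B6, which touches the branch site adenosine, had 43.4 and 40.2 CPM in the T24 knockdown libraries, against 61.5 CPM in the T24 control. UMUC3 showed the same order, with 77.0 and 66.6 CPM after knockdown and 92.9 CPM in the control. All 4 knockdown libraries were below their control. The log2 fold change over both lines was -0.47 ± 0.14 (SE) (edgeR adjusted p = 0.315), which did not pass, whereas DESeq2 gave an adjusted p of 0.0324. SF3B5 measured 77.6 and 74.9 CPM in T24 and 114 and 114 CPM in UMUC3 after knockdown, against 94.2 CPM in the T24 control and 122 CPM in the UMUC3 control. SF3B1, the large scaffold of SF3B, had 346 and 236 CPM in the T24 knockdown libraries, against 185 CPM in the T24 control. In UMUC3 it had 465 and 517 CPM after knockdown and 553 CPM in the control. The T24 libraries spread widely for SF3B1, and its log2 fold change in T24 was 0.66 ± 0.27 (SE) (edgeR adjusted p = 0.447). SF3A2 was low, at 16.3 and 15.7 CPM in the T24 knockdown libraries, against 10.7 CPM in the T24 control. UMUC3 counts were 9.84 and 12.6 CPM after knockdown, against 13.8 CPM in the control. SF3A1, SF3A3 and SF3B3 differed from their controls by log2 fold changes of -0.07 to 0.10 in T24 and 0.20 to 0.30 in UMUC3, none of which passed.

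The 3 PTB proteins, which bind pyrimidine-rich stretches and repress exons, lay on different sides of the UMUC3 control. PTBP3 (chr9:112217716-112333667, minus strand) had 15.4 and 23.7 CPM in the UMUC3 knockdown libraries, against 241 CPM in the UMUC3 control. In T24 it had 87.7 and 110.0 CPM after knockdown, against 51.5 CPM in the control. The UMUC3 control was the highest library and the UMUC3 knockdown libraries the 2 lowest. The log2 fold change was -3.62 ± 0.30 (SE) in UMUC3 (edgeR adjusted p = 0.047) and 0.94 ± 0.32 (SE) in T24 (edgeR adjusted p = 0.375), and the difference of 4.56 ± 0.46 (SE) did not pass in edgeR (adjusted p = 0.113), whereas DESeq2 passed it (adjusted p = 2.49e-13). PTBP1, the form found in most tissues, had 267 and 260.4 CPM in the UMUC3 knockdown libraries, against 157 CPM in the UMUC3 control. T24 had 279 and 261 CPM after knockdown and 283 CPM in the control. The UMUC3 control was alone below 200 CPM. Its log2 fold change in UMUC3 was 0.75 ± 0.09 (SE) and missed the threshold in edgeR (adjusted p = 0.0728), whereas DESeq2 passed it (adjusted p = 0.000645). PTBP2, whose transcripts PTBP1 is known to direct towards decay by exon skipping, had 52.3 and 58.0 CPM in the UMUC3 knockdown libraries, against 95.2 CPM in the UMUC3 control. In T24 it had 20.8 and 22.0 CPM after knockdown and 17.0 CPM in the control. Its log2 fold change in UMUC3 was -0.79 ± 0.15 (SE) (edgeR adjusted p = 0.121, DESeq2 adjusted p = 0.00397).

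For the 3 genes called in UMUC3, leaving out any single knockdown library of either line raised the edgeR adjusted p to between 0.177 and 0.222, and limma voom gave 0.0811 for SF3B4 and PTBP3 and 0.0825 for SF3B2. Their log2 fold changes kept their sign in all of these fits.

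**Figure D2:**
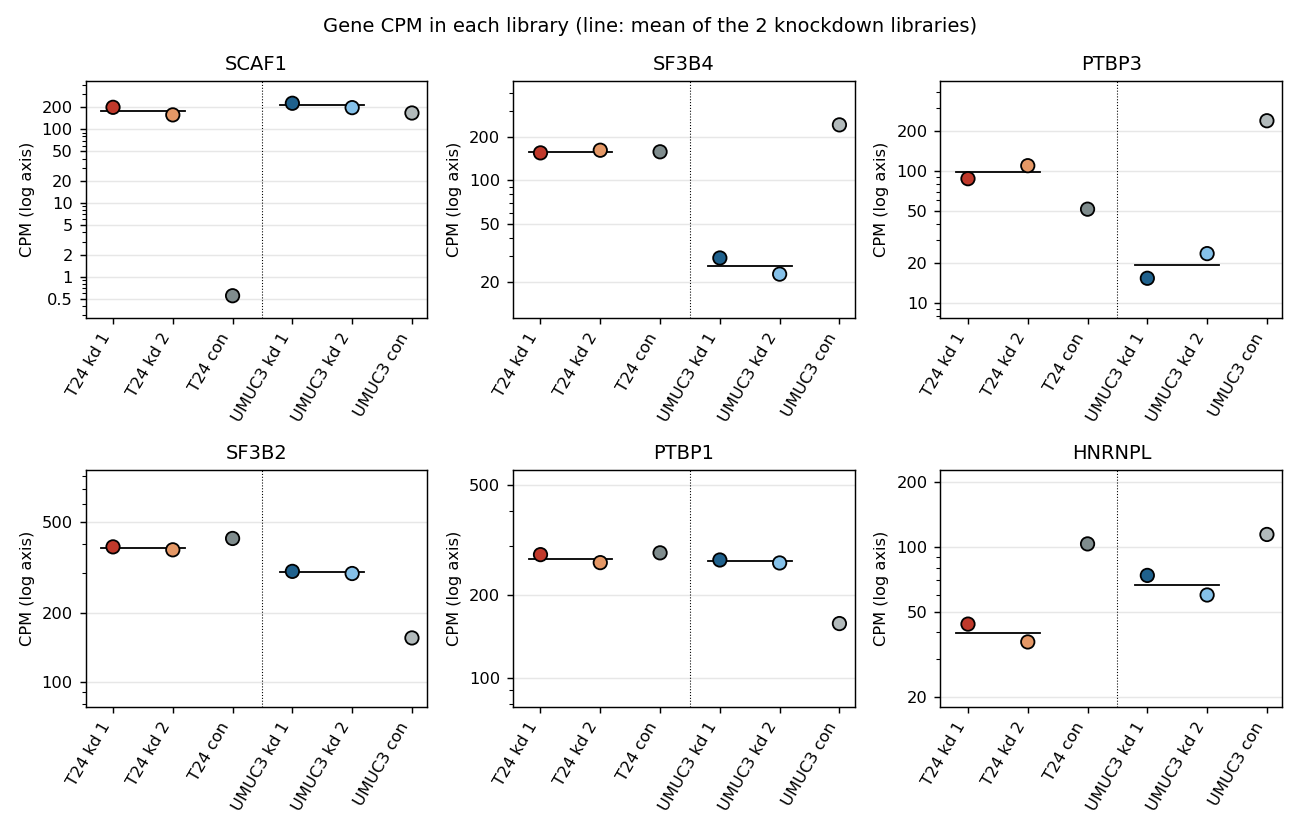
CPM on a log axis in the 6 libraries for SCAF1, SF3B4, PTBP3, SF3B2, PTBP1 and HNRNPL, knockdown (kd) left of control (con) within each line; each point is 1 library and the bar is the mean of the 2 knockdown libraries. The T24 control of SCAF1 lies at 0.555 CPM, the UMUC3 knockdown libraries of SF3B4 and PTBP3 lie under 30 CPM, and all 4 knockdown libraries of HNRNPL lie below both controls.

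HNRNPL, which binds CA repeats (chr19:38836388-38852347, minus strand), was the only hnRNP gene below its control in all 4 knockdown libraries. It measured 43.7 and 36.1 CPM in the T24 knockdown libraries, against 103 CPM in the T24 control. In UMUC3 it measured 73.7 and 59.7 CPM after knockdown, against 114 CPM in the control. The 2 controls were the highest libraries, and no knockdown library reached either. The log2 fold change over both lines was -1.08 ± 0.19 (SE) (edgeR adjusted p = 0.169), and that in T24 was -1.37 ± 0.20 (SE) (edgeR adjusted p = 0.123). Neither passed, whereas DESeq2 passed both (adjusted p = 0.000638 and 0.00023). HNRNPM lay below or at control in T24 and above it in UMUC3. It had 72.4 and 183 CPM in the T24 knockdown libraries, against 185 CPM in the T24 control, while UMUC3 had 123 and 161 CPM after knockdown, against 71.5 CPM in the control. Knockdown library 2 of T24 lay at its control, and the log2 fold changes of -0.53 ± 0.61 (SE) and 0.99 ± 0.65 (SE) did not pass (edgeR adjusted p = 0.769 in T24 and 0.541 in UMUC3).

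The most abundant hnRNP genes did not pass in any knockdown comparison. HNRNPA2B1 had 855 and 826 CPM in the T24 knockdown libraries, against 912 CPM in the T24 control, and UMUC3 gave 918 and 941 CPM with knockdown, against 831 CPM in its control. HNRNPA1 had 776 and 744 CPM in the T24 knockdown libraries, against 790.1 CPM in the T24 control. The UMUC3 knockdown libraries had 1251 and 917 CPM, against 936 CPM in their control. Knockdown library 1 of UMUC3 was the highest for HNRNPA1. HNRNPK had 635 and 639.7 CPM in the T24 knockdown libraries, against 688 CPM in the T24 control. UMUC3 counts were 695 and 652 CPM after knockdown, against 602 CPM in the control. Both HNRNPA2B1 and HNRNPK lay slightly below control in T24 and slightly above it in UMUC3. HNRNPC, which binds uridine tracts and competes with U2AF2, had 349.5 and 374 CPM in the T24 knockdown libraries, against 342 CPM in the T24 control, while UMUC3 had 445 and 448 CPM after knockdown, against 367 CPM in the control. In UMUC3 the log2 fold change was positive for 10 of the 12 hnRNP genes, against 4 of 12 in T24, with medians of 0.19 and -0.08, and over all genes tested the median was 0 in both lines. None of the 12 passed in either line, and at an unadjusted p under 0.05 in edgeR there were 0 higher and 2 lower in T24 and 3 higher and 1 lower in UMUC3. At that threshold 6.6% of all genes were higher and 5.94% lower in T24, and 9.22% were higher and 7.62% lower in UMUC3. The difference between the lines did not pass for any of them.

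None of the 12 SR and TRA2 genes passed in any knockdown comparison, and at an unadjusted p under 0.05 in edgeR there were 0 higher and 1 lower over both lines, 1 higher and 1 lower in T24 and 0 higher and 1 lower in UMUC3, beside shares of all genes between 5.63 and 9.22% in each direction. SRSF9 had 159.8 and 125 CPM in the T24 knockdown libraries, against 223 CPM in the T24 control, and UMUC3 gave 276 and 231 CPM with knockdown, against 302 CPM in its control. All 4 knockdown libraries were below their control, with a log2 fold change of -0.45 ± 0.16 (SE) over both lines (edgeR adjusted p = 0.39). SRSF6 had 92.1 and 93.4 CPM in the T24 knockdown libraries, against 68.9 CPM in the T24 control. The UMUC3 knockdown libraries had 99.1 and 102 CPM, against 126 CPM in their control. It lay above control in T24 and below it in UMUC3, and the difference of 0.76 ± 0.15 (SE) missed the threshold in edgeR (adjusted p = 0.202), whereas DESeq2 passed it (adjusted p = 0.0210). SRSF1, the founding member of the family, had 132 and 62.8 CPM in the T24 knockdown libraries, against 78.6 CPM in the T24 control. UMUC3 counts were 90.7 and 131 CPM after knockdown, against 94.1 CPM in the control. Its 2 knockdown libraries fell on opposite sides of the control in each line. TRA2B, which promotes exons with GAA-rich enhancers, had 191 and 187 CPM in the T24 knockdown libraries, against 172 CPM in the T24 control, while UMUC3 had 284 and 283 CPM after knockdown, against 294 CPM in the control. The remaining SR and TRA2 genes had log2 fold changes between -0.25 and 0.22 in T24 and between -0.18 and 0.23 in UMUC3. U2AF1, the subunit that reads the AG of the 3′ splice site, was above control in all 4 knockdown libraries, and U2AF2, its partner on the pyrimidine tract, was below control in all 4. Their log2 fold changes over both lines were 0.27 ± 0.13 (SE) and -0.33 ± 0.14 (SE) and did not pass (edgeR adjusted p = 0.497 and 0.459). PRPF8 straddled its control in each line.

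Counts also moved between the transcripts of a gene. The composition shift, meaning the greatest fraction of the counts of a gene that sat in other transcripts when any 2 libraries of a line were compared, had a median of 0.128 over the set in T24 and 0.126 in UMUC3. Over all tested genes with at least 2 transcripts it was 0.225 in T24 and 0.23 in UMUC3, and 25% of those genes reached 0.5 in each line. The medians of the set include SF3B5, which has 1 transcript and thus a shift of 0. All genes were not matched to the set for counts, and shares of genes with few counts vary more by sampling. In the set 4 genes reached 0.5 in T24, namely SCAF1, PTBP3, HNRNPC and HNRNPU, and 3 did so in UMUC3, namely SRSF4, HNRNPF and HNRNPU. For SCAF1 the T24 control held only 33 counts, against 11769 and 9288 in the T24 knockdown libraries, so its shift rests on the near absence of the gene there. The transcript with the highest count was the same in all 6 libraries for 25 of the 40 genes. Transcript counts are as deposited. Reads that several transcripts of a gene share can be assigned to either without a change in the RNA, which was not tested. No transcript of the set passed in any knockdown comparison, in which 0.00131% of 76126 transcripts passed as higher and 0.0105% as lower over both lines, 0% in either direction in T24 and in the difference, and 0.00263% as higher and 0.00131% as lower in UMUC3. At an unadjusted p under 0.05 in edgeR, 6 transcripts of the set were higher and 10 lower over both lines, 17 higher and 15 lower in T24, 14 higher and 8 lower in UMUC3, and 16 higher and 20 lower in the difference. Of all transcripts, 3.38% were higher and 2.45% lower at that threshold over both lines, 3.87 and 3.34% in T24, 4.81 and 3.24% in UMUC3, and 3.61 and 4.39% in the difference.

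The moves within HNRNPC, PTBP3 and SRSF4 set controls apart from knockdown libraries. HNRNPC-222, a coding transcript, had 117 and 127 CPM in the T24 knockdown libraries, against 6.53 CPM in the T24 control. HNRNPC-219, also coding, had 16 and 18.9 CPM in the T24 knockdown libraries, against 125 CPM in the T24 control. HNRNPC-202 had 77.2 and 50.3 CPM in the T24 knockdown libraries, against 0.151 CPM in the T24 control, and 0 counts in all UMUC3 libraries. The summed level of HNRNPC in the T24 control lay just under its knockdown libraries throughout these exchanges. PTBP3-205 made up 95.1 and 84.5% of PTBP3 counts in the T24 knockdown libraries, against 19.2% in the T24 control, where PTBP3-203 held 77.5%. In UMUC3 PTBP3-205 made up 77.0 and 50.4% after knockdown, against 96.8% in the control. The T24 control was the only library in which PTBP3-205 did not lead. SRSF4-201, a coding form of SRSF4, had 67.0 and 52.1 CPM in the UMUC3 knockdown libraries, against 6.02 CPM in the UMUC3 control. The retained-intron transcript SRSF4-208 held 27.2 and 43.1% of SRSF4 counts after UMUC3 knockdown, against 86.7% in the UMUC3 control. The summed level of SRSF4 was 99.5 and 102 CPM after UMUC3 knockdown and 86.0 CPM in the control, so the coding form lay further from its control than the sum did. HNRNPU-202, a retained-intron transcript of the scaffold protein gene HNRNPU, had 382 and 373 CPM in the UMUC3 knockdown libraries, against 13.1 CPM in the UMUC3 control.

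Other moves set 1 library or 1 line apart. HNRNPF-201 had 4.30 and 53.0 CPM in the UMUC3 knockdown libraries, against 43.7 CPM in the UMUC3 control, so knockdown library 1 stood alone. The gene sum of HNRNPF, a binder of guanine runs, was 42.3 and 43.8 CPM in T24 and 27.3 and 68.7 CPM in UMUC3 after knockdown, against 43.9 CPM in the T24 control and 62.8 CPM in the UMUC3 control. HNRNPF-206, annotated as a processed transcript without a reading frame, held 61.5, 66.0 and 63.5% of HNRNPF counts in the T24 libraries and 17.9, 0.263 and 0.314% in the UMUC3 libraries. HNRNPU-228 had 0 and 126 CPM in the T24 knockdown libraries, against 0.0673 CPM in the T24 control, and was at 0 in UMUC3, so nearly all its counts came from 1 library. Likewise SRSF9-206 had 61.5 and 0 CPM in the T24 knockdown libraries and 0 in the other 4. U2AF1-202 had 14.1 and 10.4 CPM in the T24 knockdown libraries and 0 counts in the T24 control. With that control set at 3 counts, it was at least 242-fold higher after knockdown, if the deposited assignment of reads to transcripts holds. In UMUC3 it had 12.4 and 14.1 CPM after knockdown, against 4.32 CPM in the UMUC3 control.

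**Figure D3:**
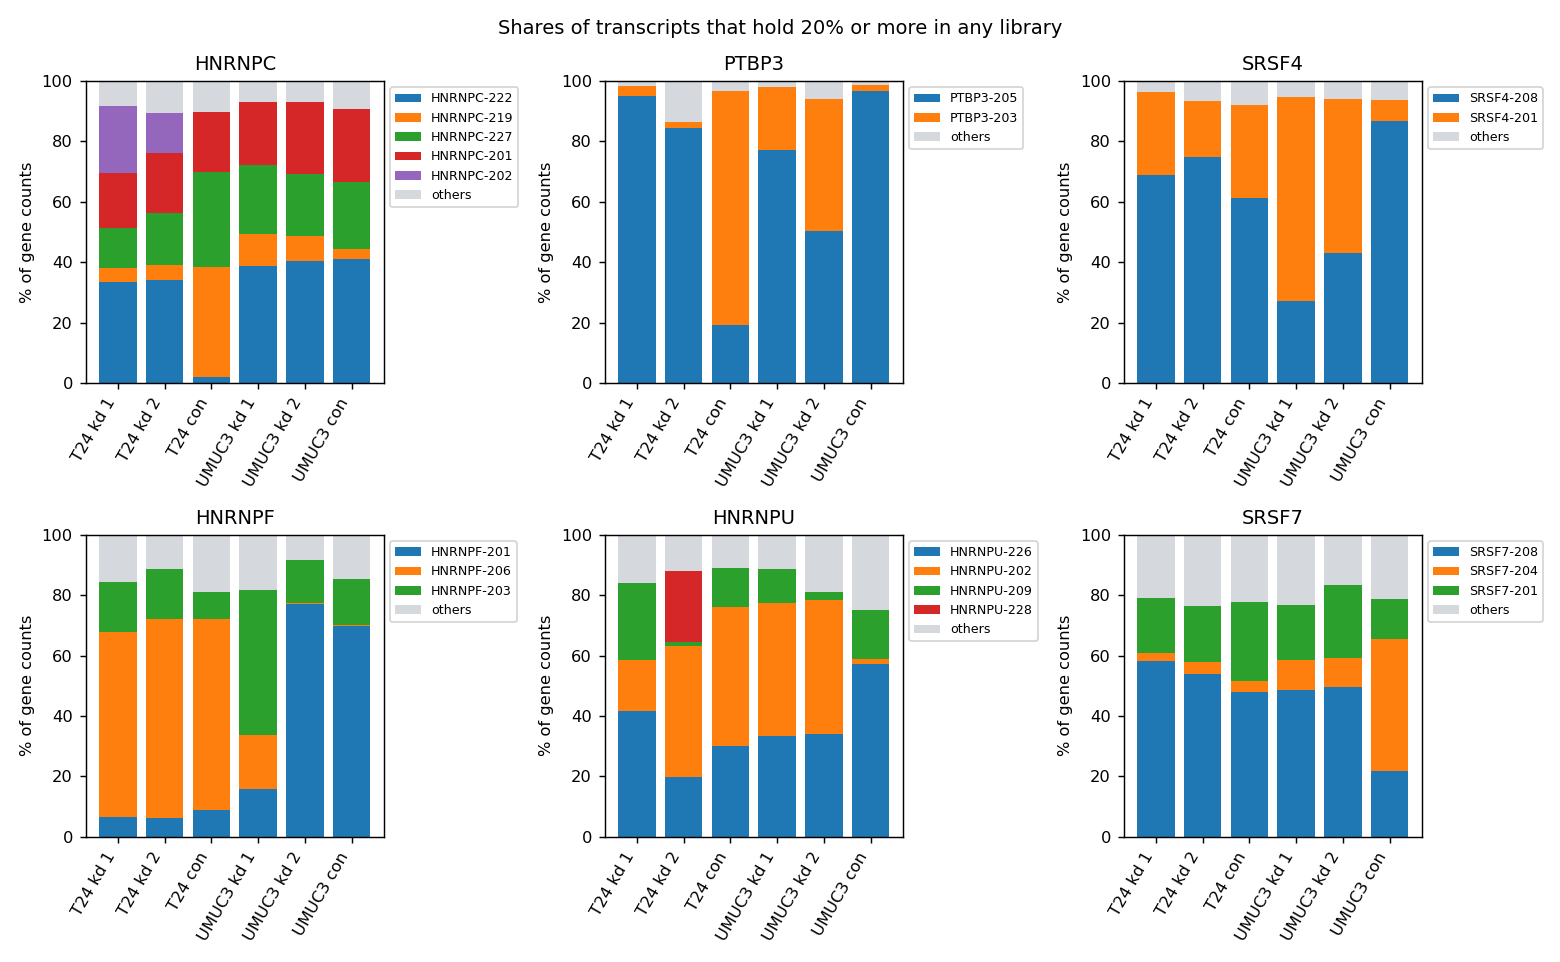
Percent of each gene's counts by transcript in the 6 libraries for HNRNPC, PTBP3, SRSF4, HNRNPF, HNRNPU and SRSF7, knockdown (kd) left of control (con); transcripts under 20% in every library are pooled in grey. The T24 control stands apart for HNRNPC and PTBP3, the UMUC3 control for SRSF4 and SRSF7, and the T24 knockdown library 2 alone holds HNRNPU-228.

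Transcripts annotated as targets of NMD were present for 24 of the 40 genes. The following stretches show where the reading frame closes early in 7 of them, from the first base of the exon with the stop to the stop codon, which is in capitals. Each was read 5′ to 3′ from the transcript's sequence in GENCODE release 29 (GRCh38). They are shown because they hold the early stop codons on which the annotation as an NMD target rests. All 7 come from NMD transcripts in which that exon is absent from the leading coding transcript, which does not hold for others such as SRSF1-204. They therefore do not show how common such exons are. In 6 of the 7 the exon is absent from every coding transcript of its gene with an annotated stop codon, and in TRA2B-206 not from all of these. SRSF3-203 closes at chr6:36599821-36599854, plus strand, SRSF6-202 at chr20:43459153-43459304, plus strand, and SRSF7-204 at chr2:38749319-38749346, minus strand. SRSF9-206 closes at chr12:120464812-120464822, minus strand, TRA2B-206 at chr3:185931772-185931852, minus strand, HNRNPL-202 at chr19:38841624-38841682, minus strand, and HNRNPU-228 at chr1:244848809-244848856, minus strand.
SRSF3-203: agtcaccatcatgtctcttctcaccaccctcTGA
SRSF6-202: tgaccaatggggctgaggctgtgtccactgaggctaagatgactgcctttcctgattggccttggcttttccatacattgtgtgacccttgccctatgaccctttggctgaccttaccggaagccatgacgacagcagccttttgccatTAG
SRSF7-204: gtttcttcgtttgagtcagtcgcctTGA
SRSF9-206: aaaactatTAG
TRA2B-206: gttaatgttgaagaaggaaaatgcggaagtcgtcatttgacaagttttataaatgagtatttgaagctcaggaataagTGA
HNRNPL-202: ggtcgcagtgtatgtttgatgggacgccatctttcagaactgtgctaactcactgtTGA
HNRNPU-228: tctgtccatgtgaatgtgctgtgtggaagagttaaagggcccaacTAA

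SRSF6-202, with the longest of these stretches, held 39.7, 33.1 and 41.9% of SRSF6 counts in the T24 libraries (knockdown 1, knockdown 2 and control) and 18.2, 17.5 and 18.6% in the UMUC3 libraries, in the same order. The lines did not overlap, and in each line the control was the highest. SRSF3-203 held 11.3 and 10.4% of SRSF3 counts in the T24 knockdown libraries, against 17.2% in the T24 control. In UMUC3 it held 18.6 and 8.23% after knockdown, against 5.99% in the control, so both values lay below control in T24 and above it in UMUC3. SRSF7-204 held 2.39 and 4.10% of SRSF7 counts in the T24 knockdown libraries, against 3.80% in the T24 control, and 9.70 and 9.77% after UMUC3 knockdown, against 43.8% in the UMUC3 control. The UMUC3 control was the only library where it led, and there SRSF7-208, also annotated as an NMD target, held 21.7%, against 48.7 and 49.5% after UMUC3 knockdown. HNRNPL-202 had 1.56 and 0.168 CPM in the T24 knockdown libraries, against 8.97 CPM in the T24 control, and UMUC3 gave 4.51 and 3.30 CPM with knockdown, against 9.22 CPM in its control. Its coding transcript HNRNPL-201 had 17.0 and 16.3 CPM in the T24 knockdown libraries, against 30.3 CPM in the T24 control. The UMUC3 knockdown libraries had 15.3 and 12 CPM, against 22.4 CPM in their control. Both transcripts lay below control in all 4 knockdown libraries. The retained-intron transcript HNRNPL-203 had 5.46 and 3.72 CPM in the T24 knockdown libraries, against 19.6 CPM in the T24 control. UMUC3 counts were 6.13 and 5.26 CPM after knockdown, against 21.4 CPM in the control. These 3 transcripts, 1 of each type, were thus all lower in the knockdown libraries than in the control of their line. TRA2B held 2.74 and 1.75% of its counts in its NMD transcript after T24 knockdown, against 2.79% in the T24 control, and 2.81 and 1.88% after UMUC3 knockdown, against 4.12% in the UMUC3 control.

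In 2 genes NMD transcripts held at least 20% of counts in all 6 libraries, SRSF1 and SRSF7. SRSF1 had 73.7 and 78.7% in the T24 knockdown libraries, against 71.4% in the T24 control, and 72.8 and 75.5% after UMUC3 knockdown, against 97.6% in the UMUC3 control. Most of it was SRSF1-204, whose stop lies in an exon that is not absent from the coding transcripts. The coding transcript SRSF1-205 had 21.6 and 28.3 CPM after UMUC3 knockdown, against 0.806 CPM in the UMUC3 control. T24 had 29.5 and 11.2 CPM after knockdown, against 20.7 CPM in its control. The UMUC3 control was alone below 10 CPM for that coding form, while its sum over all SRSF1 transcripts lay close to knockdown library 1. Both knockdown shares lay above the control for 10 of the 24 genes in T24 and 7 in UMUC3, and below it for 8 in T24 and 11 in UMUC3. Of all 4838 tested genes with such a transcript, 23.3% lay above control in T24 and 23.7% in UMUC3. Below control lay 30.7% in T24 and 30.5% in UMUC3. The rest lay on neither side, where genes also fall if their NMD transcripts have no counts in a line. The 4838 genes were not matched to the set for counts. Their percentages therefore cannot decide whether shares in the set rose or fell more often than elsewhere.

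**Figure D4:**
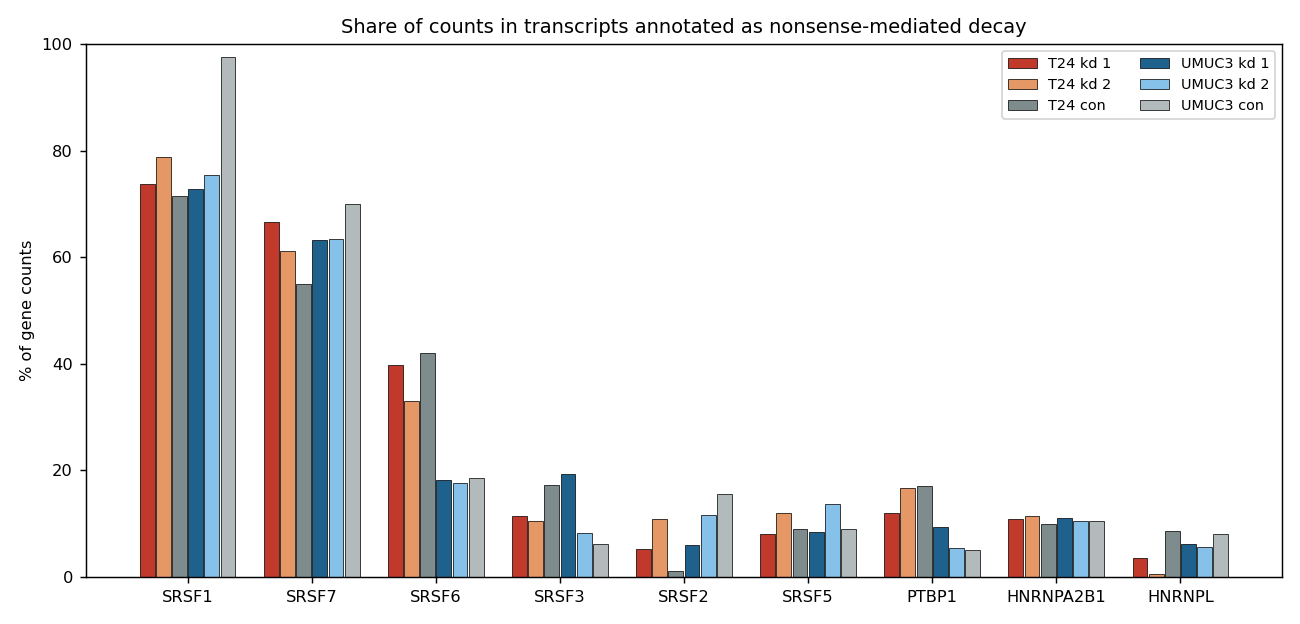
Percent of each gene's counts in transcripts annotated as NMD targets for 9 genes, 1 bar per library, with knockdown (kd) left of control (con) within each line. SRSF6 is higher in all 3 T24 libraries than in UMUC3, and the UMUC3 control reaches 97.6% for SRSF1.

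Summed over the set, NMD transcripts held 5.74 and 5.22% of counts in the T24 knockdown libraries, against 4.26% in the T24 control. In UMUC3 they held 4.53 and 3.82% after knockdown, against 4.56% in the control. Retained-intron transcripts held 11.8 and 12.3% in the T24 knockdown libraries, against 12.5% in the T24 control, and 15.3 and 14.2% after UMUC3 knockdown, against 12.9% in the UMUC3 control. NMD shares thus lay above control in T24 and below it in UMUC3, only just so in UMUC3 knockdown library 1. Retained-intron shares lay the other way round. The NMD sums of both lines include genes in which a single library stood apart. HNRNPU had 10.6 and 133 CPM in NMD transcripts after T24 knockdown, against 1.83 CPM in the control. SRSF9 had 61.5 and 0 CPM, against 0, and HNRNPD 81.3 and 9.94 CPM, against 12.2 CPM. In UMUC3 HNRNPD had 69.6 and 2.04 CPM in NMD transcripts after knockdown, against 60.1 CPM in the control. By gene, 10 of 24 shares lay above the T24 control and 8 below it, and 7 lay above the UMUC3 control and 11 below it. Sums without these genes were not tested. As a mean of the shares per gene the retained-intron pattern did not hold, with 15.7 and 17.3% in the T24 knockdown libraries, against 17.1% in the T24 control, and 17.7 and 17.0% after UMUC3 knockdown, against 19.3% in the UMUC3 control. Of all named counts, NMD transcripts held 2.22 to 2.49% and retained-intron transcripts 6.05 to 7.69%, below the shares in the set in every library. Knockdown minus control, averaged over the lines, was 0.42 percentage points for NMD and 0.69 for retained introns (exact permutation test, two-sided, p = 0.556 for each, smallest possible p = 0.111). T24 minus UMUC3 was 0.78 percentage points for NMD (exact permutation test, two-sided, p = 0.3) and -1.92 for retained introns (p = 0.1, the smallest possible). Protein-coding transcripts held 78.4 to 81.7% of the counts of the set. Over the 8 such tests the Benjamini-Hochberg adjusted values were 0.533 to 0.667.

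In the median gene the lines lay further apart than the conditions. Between the 2 controls the median absolute log2 difference of the 40 genes was 0.43, against 0.67 over all genes tested, and between knockdown libraries and controls it was 0.15 to 0.25 for the set and 0.29 to 0.33 over all genes. In T24 relative to UMUC3, with knockdown in the model, 3 genes of the set were higher and 14 lower (edgeR adjusted p at or under 0.05), where 21.3% of all genes were higher and 18.9% lower. The median log2 fold change of the set was -0.31, against 0.02 over all genes. All T24 libraries lay above all UMUC3 libraries for 6 of the 40 genes (27.2% of all genes) and below them for 17 (25.1% of all genes). Of the 17 genes that passed, 8 did so under every alternative that tested them, namely SRSF7, SRSF10, TRA2B, HNRNPA3, HNRNPH1, HNRNPU, PTBP2 and SF3B6.

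SR genes made up 6 of the 17, 5 of them lower in T24. SRSF7, which also takes part in the export of messenger RNA, had 90.0, 88.6 and 104 CPM in the T24 libraries (knockdown 1, knockdown 2 and control, the order used in the rest of this comparison) and 148, 143 and 146 CPM in the UMUC3 libraries, a log2 fold change of -0.63 ± 0.11 (SE) (edgeR adjusted p = 0.00673). SRSF10, a repressor that is activated on loss of its phosphates, had 106, 110.3 and 100.2 CPM in T24 and 150.1, 164 and 146 CPM in UMUC3, a log2 fold change of -0.54 ± 0.10 (SE) (edgeR adjusted p = 0.00975). SRSF9 was also lower, with a log2 fold change of -0.70 ± 0.16 (SE) and no overlap between the lines (edgeR adjusted p = 0.0171). SRSF11 had 149.9, 165 and 181 CPM in T24 and 235, 223 and 238 CPM in UMUC3. SRSF5 had 72.7, 68.1 and 74.7 CPM in T24 and 107, 89.9 and 112 CPM in UMUC3. Neither of them overlapped between lines, and their log2 fold changes were -0.49 ± 0.10 (SE) and -0.52 ± 0.12 (SE) (edgeR adjusted p = 0.0124 and 0.0218). SRSF4 was the exception, with 126, 138 and 113 CPM in T24 and 99.5, 102 and 86.0 CPM in UMUC3, a log2 fold change of 0.39 ± 0.10 (SE) (edgeR adjusted p = 0.0321). TRA2B, with the CPM given above, was lower in T24, with a log2 fold change of -0.65 ± 0.09 (SE) (edgeR adjusted p = 0.00373), whereas TRA2A overlapped between lines.

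Among hnRNP and PTB genes the 5 that passed were all lower in T24. HNRNPH1, which binds guanine runs, had 173, 223 and 169.8 CPM in T24 and 345, 359 and 335 CPM in UMUC3, a log2 fold change of -0.88 ± 0.13 (SE) (edgeR adjusted p = 0.00376). HNRNPA3 had 602, 572 and 565 CPM in T24 and 890.3, 892 and 762 CPM in UMUC3, a log2 fold change of -0.54 ± 0.08 (SE) (edgeR adjusted p = 0.004). Neither gene overlapped between the lines, and HNRNPA3 has 16 annotated pseudogenes of its name. HNRNPU had 634, 539.6 and 525 CPM in T24 and 869, 844 and 703 CPM in UMUC3, and HNRNPR, a relative of SYNCRIP, had 279, 265 and 320.1 CPM in T24 and 427, 436 and 353 CPM in UMUC3. Their log2 fold changes were -0.50 ± 0.09 (SE) and -0.49 ± 0.13 (SE) (edgeR adjusted p = 0.00918 and 0.0312). PTBP2 had 20.8, 22.0 and 17.0 CPM in T24 and 52.3, 58.0 and 95.2 CPM in UMUC3, a log2 fold change of -1.73 ± 0.26 (SE) (edgeR adjusted p = 0.0044). The UMUC3 control alone set the top of the UMUC3 range.

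SF3 subunits split by direction. SF3A1 had 266, 260.5 and 265 CPM in T24 and 209, 208 and 182 CPM in UMUC3, and SF3A3 had 218, 215 and 227 CPM in T24 and 175, 182 and 149 CPM in UMUC3. Both were higher in T24, with log2 fold changes of 0.40 ± 0.10 (SE) and 0.39 ± 0.11 (SE) (edgeR adjusted p = 0.0202 and 0.0383). SF3B1, SF3B5 and SF3B6 were lower in T24, with log2 fold changes of -1.03 ± 0.23 (SE), -0.51 ± 0.11 (SE) and -0.72 ± 0.13 (SE) (edgeR adjusted p = 0.0181, 0.0154 and 0.00857). In each of these 5 the T24 and UMUC3 libraries did not overlap. SF3B2, SF3B4, PTBP3 and SCAF1 had large line differences (0.71, 1.60, 1.04 and -1.69) that did not pass, with 1 control library or 1 pair of knockdown libraries far from the rest of its line in each.

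**Figure D5:**
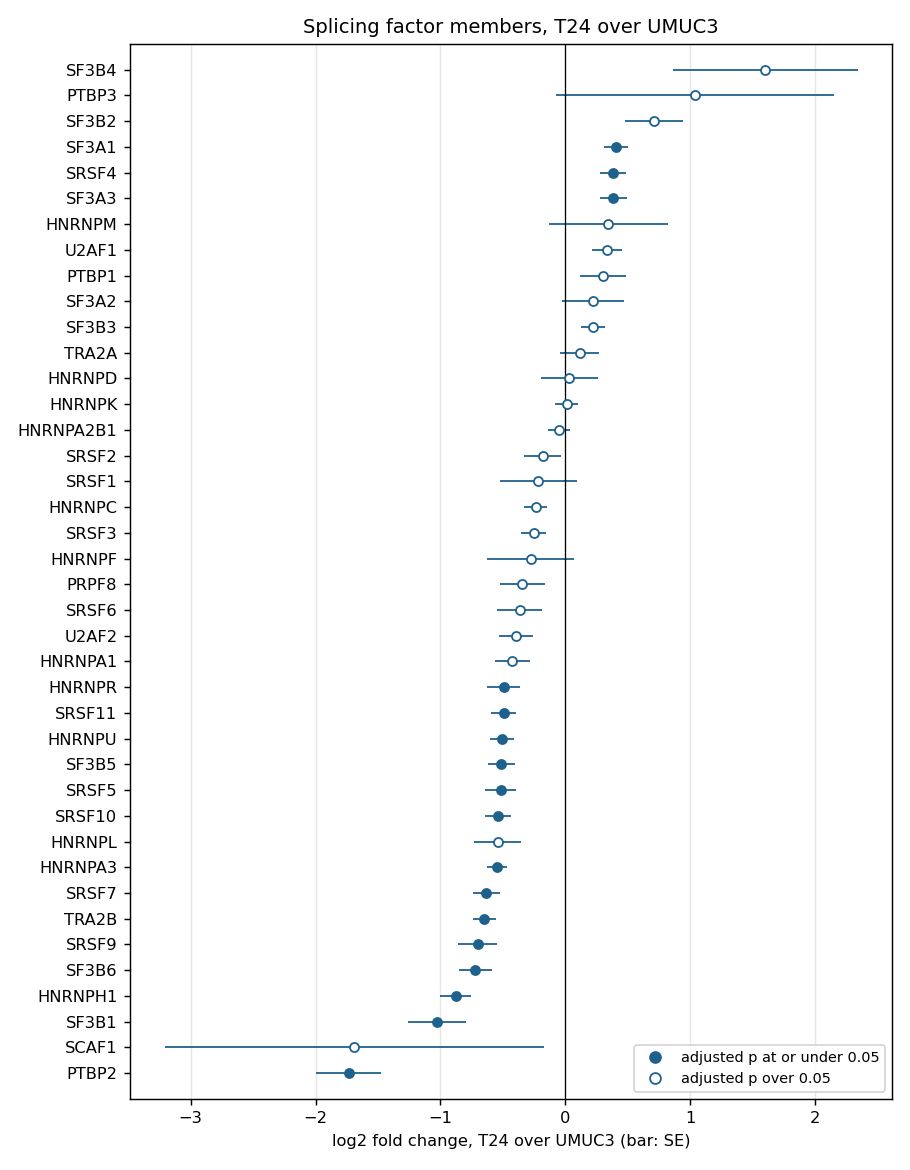
Log2 fold change of T24 over UMUC3 with its SE for the 40 genes, ordered by value; filled points passed the edgeR test over all genes (adjusted p at or under 0.05) and open points did not. Filled points comprise 14 below 0 and 3 above it, and the widest bars belong to SCAF1, PTBP3 and SF3B4.

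At the level of transcripts, 5 of the 379 tested in the set passed between lines, where 1.86% of all transcripts passed as higher and 1.06% as lower in T24. HNRNPH1-227, a retained-intron form, had 32.5, 32.0 and 28.2 CPM in T24 and 103, 113 and 97.6 CPM in UMUC3. HNRNPC-202, given above, was present in T24 knockdown libraries alone at more than 1 CPM, and its T24 control had 0.151 CPM. HNRNPM-213 had 0.891, 5.67 and 6.45 CPM in T24 and 0.0713, 0 and 0 CPM in UMUC3. SRSF7-203 had 0.0672, 0.0841 and 0.0337 CPM in T24 and 0.660, 0.673 and 1.06 CPM in UMUC3, and TRA2B-209 had 2.57, 2.74 and 3.30 CPM in T24 and 15.6, 13.8 and 13.8 CPM in UMUC3. HNRNPC-202 and HNRNPM-213 were higher in T24 and the other 3 were lower. Without any one of the 4 knockdown libraries no transcript of the set passed, and without either control 2 did.

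The rest of the splicing machinery gave a frame for the set. Of 115 further splicing genes tested in 7 lists, none passed over both lines, in T24 or in the difference, and at an unadjusted p under 0.05 there were 6 higher and 10 lower over both lines, where 5.95% of all genes were higher and 5.63% lower. In UMUC3 RNPS1, an activator of splicing and part of the exon junction complex, rose alone. It had 298 and 312 CPM in the UMUC3 knockdown libraries, against 149 CPM in the UMUC3 control. T24 had 296 and 284 CPM after knockdown, against 282 CPM in its control. Its log2 fold change in UMUC3 was 1.03 ± 0.09 (SE) (edgeR adjusted p = 0.047), with the UMUC3 control alone low, as for SF3B2 and PTBP1. Whether the RNPS1 call held under the alternatives was not examined. The CLK kinases phosphorylate SR proteins. CLK1 had 46.1 and 39.8 CPM in the T24 knockdown libraries, against 25.3 CPM in the T24 control, while UMUC3 had 23.6 and 30.1 CPM after knockdown, against 31.7 CPM in the control. CLK4 had 15.1 and 15.6 CPM in the T24 knockdown libraries, against 8.08 CPM in the T24 control, and UMUC3 gave 10.1 and 11.6 CPM with knockdown, against 13.1 CPM in its control. CLK2 was above control in all 4 knockdown libraries, at 15.3 and 15.7 CPM in T24 and 15.7 and 18.7 CPM in UMUC3, against 8.09 CPM in the T24 control and 11.1 CPM in the UMUC3 control. CLK3 had 63.3 and 61.0 CPM in the T24 knockdown libraries, against 58.3 CPM in the T24 control. The UMUC3 knockdown libraries had 52.4 and 52.0 CPM, against 51.1 CPM in their control. None of the 4 kinases passed (edgeR adjusted p = 0.25 for CLK4 and 0.256 for CLK2 in T24, the lowest 2).

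Between the lines, 8 of the 115 were higher and 40 lower in T24, with a median log2 fold change of -0.23, where 21.3% of all genes were higher and 18.9% lower and the median over all genes was 0.02. Branch site and early assembly factors had 6 of 12 lower and none higher, and Sm and snRNP proteins had 8 of 21 lower and 1 higher. PNN, a partner of RNPS1, had 147, 151 and 141 CPM in T24 and 342, 327 and 369 CPM in UMUC3, a log2 fold change of -1.24 ± 0.10 (SE) (edgeR adjusted p = 4.91e-04). SYNCRIP had 346, 355 and 294 CPM in T24 and 752, 716 and 799 CPM in UMUC3, and HNRNPAB had 279, 252 and 329 CPM in T24 and 609, 563 and 683 CPM in UMUC3. ESRP2, an epithelial splicing regulator, had 9.40, 9.94 and 12.9 CPM in T24 and 0.107, 0.0657 and 0.0716 CPM in UMUC3, a log2 fold change of 7.01 ± 0.31 (SE) (edgeR adjusted p = 1.20e-05). RBM47, another epithelial regulator, had 4.20, 2.93 and 2.61 CPM in T24 and 0, 0 and 0.0716 CPM in UMUC3. SRSF8 had 70.5, 75.7 and 68.2 CPM in T24 and 37.1, 39.2 and 34.2 CPM in UMUC3, a log2 fold change of 0.96 ± 0.12 (SE) (edgeR adjusted p = 0.00242). ESRP1 was not analysed here.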

How the data were processed

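RNA-seq libraries of T24 and UMUC3 cells were measured, with total RNA taken by Trizol. The authors deposited 1 table of raw read counts per transcript, whole numbers that are not normalized, with coordinates of hg38. FastQC 0.11.5, HISAT2 2.1.0 and StringTie 1.3.3b are named, per the submitters' processing notes. Strand and counting settings are not given in the sources used here. Samples were grouped by their titles. The T24 columns number the 2 knockdown libraries the other way round from the titles, and the titles were used.

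Counts were summed by gene. All 15038 rows without a gene (14.9 to 16.1% of counts) entered neither the library sizes nor the tests. A gene or transcript was kept where 2 or more libraries had 10 counts and all libraries together 30 (20721 genes and 76126 transcripts). CPM were scaled with TMM factors. Tests used edgeR 4.0.16 (R 4.3.3) with its quasi-likelihood F test and Benjamini-Hochberg adjustment over all genes, or all transcripts. Knockdown over both lines and T24 over UMUC3 came from a fit of line plus knockdown with 3 residual degrees of freedom. Effects in single lines and their difference came from a fit of 4 groups with 2. In the first fit a knockdown effect that differs between the lines counts as spread, so such genes pass less easily there. For SF3B4 the SE was 0.75 over both lines, against 0.18 in T24 and 0.18 in UMUC3. The scripts were tested on simulated data. Alternatives used limma 3.58.1, DESeq2 1.42.0 and the settings named at the end. Transcript types, positions and sequences came from GENCODE release 29 on GRCh38, where all 462 transcripts were found at identical coordinates.

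The 40 genes and all lists were chosen with earlier results of these data known. Values in every library are given for genes that passed in any comparison, the 4 highest and 4 lowest fold changes of each comparison above 5 CPM, the genes with a composition shift of at least 0.5, and the 5 highest per kilobase. SRSF6, U2AF1, U2AF2 and single transcripts outside that rule were chosen after their values were seen.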

Additional observations from a re-analysis of the deposited data

Results flagged for a closer look

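The knockdown effect on SCAF1 differed between the lines by 7.97 on the log2 scale, T24 minus UMUC3, by the test of the difference itself (edgeR quasi-likelihood test, adjusted p = 0.0487). SCAF1 had 198 and 156 CPM in the T24 knockdown libraries, against 0.555 CPM in the T24 control. UMUC3 had 224 and 196 CPM after knockdown, against 166 CPM in its control. The value rests on 1 library, the T24 control, and on 2 residual degrees of freedom. Over the alternatives the adjusted p ran from 1.47e-60 with DESeq2 to 0.412 with a replicate block, and it was 0.218 to 0.315 without any one knockdown library. Whether that library differs from the rest of T24 by its treatment or in another way cannot be told apart.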

How the results depend on the processing

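Each line has 1 control, so counts of genes called in a line turned on the test and on single libraries. Over both lines 0 genes of the set passed in edgeR, 2 with DESeq2 and 0 to 3 without 1 library. In T24, where 1 passed, the count was 2 with DESeq2, 0 with limma voom, among composition-stable genes (at least 2 transcripts and a shift under 0.2 in both lines, a set that leaves out SCAF1) and with edgeR's legacy quasi-likelihood fit, an alternative chosen after seeing the data, and 0 to 1 without 1 library. In UMUC3, where 3 passed, it was 5 with DESeq2, 1 among composition-stable genes, 0 with limma voom and the legacy fit, and 0 to 3 without 1 library. The difference, where SCAF1 alone passed, gave 1 among composition-stable genes, which was SF3B4, 7 with DESeq2, 0 with DESeq2's size factors in edgeR, limma voom and the legacy fit, and 0 without any one knockdown library. Between lines 17 passed, 11 among the 18 composition-stable genes and 10 to 21 without 1 library. Of transcripts, 5 passed between lines, 1 without a filter on low counts and 0 to 2 without 1 library. The difference between knockdown libraries 1 and 2, numbered by the titles, had an r of 0.01 between the lines over 20721 genes. By the numbers of the columns it was -0.01, the same value with its sign turned and not a second check. An r over all genes cannot decide whether the numbers pair the samples, since few of these genes passed in any knockdown comparison. The titles give the same reagent numbers in both lines. With a replicate block by either number, 0 genes of the set passed in T24, in UMUC3 and in the difference, and 0 transcripts passed between lines.

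Over all genes, the count called over both lines was 3 in edgeR and 0 to 987 over the alternatives, 28 and 0 to 963 in T24, 134 and 0 to 1700 in UMUC3, 12 and 0 to 1120 in the difference, and 8329 and 2428 to 9765 between lines. DESeq2 gave the highest count in each.

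As a mean of the shares per gene, 4 differences in transcript type turned round. Knockdown minus control became 0.95 percentage points for coding, against -1.18 for summed counts, and -1.31 for retained introns, against 0.69 for summed counts, and T24 minus UMUC3 became -0.81 for coding, against 1.25, and 1.45 for processed transcripts, against -0.10. Without 1 library, knockdown minus control ran from -0.38 to 1.22 points for NMD, -0.51 to 1.88 for retained introns and -0.042 to 0.18 for processed transcripts. The log2 fold change of SF3B4 over both lines ran from -3.21 to 0.0060 without 1 library, and was 0.0060 without the UMUC3 control. Of 801 alternative values of single genes at an unadjusted p under 0.05 in edgeR, 692 kept direction and side of the threshold, 81 lost the threshold, 27 gained it and 1 turned round. A gene that did not pass and stayed so counts among the 692, so this count does not measure how well calls held. Of the 17 genes called between lines, 8 passed under every alternative that tested them. With limma voom every call within a single line was lost. The causes were not tested.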

Other observations

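Rows without a gene held 14.9 to 16.1% of counts per library, and some of them were near 0 in all but 1 library. At 50 CPM or more in 1 library and at most 1 CPM in the other 5, there were 17 and 28 such rows in the T24 knockdown libraries, against 24 in the T24 control, and 13 and 22 after UMUC3 knockdown, against 19 in the UMUC3 control. Within T24 alone, 22 rows reached 50 CPM in both T24 knockdown libraries with at most 1 CPM in the T24 control, and 39 showed the reverse. In UMUC3 there were 19 in both knockdown libraries and 47 in the control alone. None of these rows is assigned to SCAF1, SF3B4, PTBP3 or any other gene, and whether they hold reads of named genes was not tested.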
